A study of Mus musculus with 27 samples.

Results

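The genes of the cytosolic ribosomal proteins were followed through a mouse RNA-seq series that compared limb buds grown from embryonic stem (ES) cells with tissues of the embryo. Members were all listed genes whose symbol is Rpl, Rps or Rplp followed by a number, with or without a trailing a, x, l or l1, and whose mean was at least 1 CPM (reads of a gene scaled to a fixed library total). Of 23279 genes listed, 82 had such a symbol and 79 reached the minimum, 48 of the large subunit and 31 of the small subunit. The marker of the set, Rplp0, was a member with a mean of 2088 scaled CPM over all libraries.

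There were 9 groups with 3 libraries in each. The embryonic groups came from mice of the strain Slc:ICR: forelimb buds (FLB) and hindlimb buds (HLB) at an early stage labelled E10.0, and at E10.5 FLB, HLB, tail bud (TB), heart (Ca) and branchial arch (BA). The labels give the early stage of both limb types the same age, while the study's description of its groups makes the early FLB younger than the early HLB. By that account limb type and age differ together at the early stage, and the step to E10.5 is longer in FLB. Per the methods, tissues were taken from several embryos and used whole without sorting. Whether a library pooled embryos is not stated. Libraries of ES-FLB and ES-HLB, together called ES-LB, came from day 9 aggregates of the ES line EB5 Hand2::GFP +/-, which carries green fluorescent protein in one copy of the limb mesenchyme gene Hand2, and the GFP-positive cells were sorted. Both types received BMP4 and Matrigel, then the BMP inhibitor LDN193189 and Wnt3. In between, ES-FLB received retinoic acid and ES-HLB an antagonist of retinoic acid. Per the methods, the medium of both also held hydrocortisone and methylcellulose in the later days of culture. Strain, culture, sorting and ES origin therefore differed together between ES-LB and embryo and cannot be told apart. Nothing says that libraries of a group came from separate cultures, so p-values measure the spread between these libraries.

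Cytosolic ribosomes are built from ribosomal RNA and roughly equal numbers of each ribosomal protein, so cells keep the mRNAs of these genes at high and similar levels. Most of these mRNAs begin with a 5′ terminal oligopyrimidine (TOP) tract, a stretch of C and U through which growth signalling by mTOR and the RNA-binding protein Larp1 controls their translation and stability. Growing embryonic tissues make many ribosomes, and loss of single ribosomal proteins in mice can disturb the skeleton, pigment or blood.

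Start sites are shown because the TOP tract lies there. RefSeq (GRCm38.p6) gave a start for 58 of the 79 members. In a window of 30 bases on the coding strand, from 15 before to 15 after the start, the longest unbroken run of C or T was searched without regard to the other strand. At any listed start, a run of at least 7 was found for 33 of 58 members (56.9%) and for 5714 of 26967 other genes (21.2%). Capitals mark the longest run in the following windows, of which the first 5 have long runs and the other 5 short ones at the start shown. They were picked with the values known, to show both kinds among genes named in the results, and run length was not compared with the members' changes.

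Rpl35: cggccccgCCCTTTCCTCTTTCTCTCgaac
Rpl15: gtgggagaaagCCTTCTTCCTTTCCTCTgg
Rps10: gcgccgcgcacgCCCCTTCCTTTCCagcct
Rpl38: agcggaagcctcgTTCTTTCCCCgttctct
Rplp2: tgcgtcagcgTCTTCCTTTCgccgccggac
Rplp0: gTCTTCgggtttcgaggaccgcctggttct
Rpl41: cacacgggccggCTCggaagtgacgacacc
Rps28: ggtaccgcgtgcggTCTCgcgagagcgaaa
Rps19: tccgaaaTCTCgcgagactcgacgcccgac
Rps2: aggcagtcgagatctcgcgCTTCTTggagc

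The windows lie at chr2:39005117-39005146 (Rpl35, minus strand), chr14:18270972-18271001 (Rpl15, minus), chr17:27635230-27635259 (Rps10, minus), chr11:114668565-114668594 (Rpl38, plus), chr7:141447636-141447665 (Rplp2, plus), chr5:115559452-115559481 (Rplp0, plus), chr10:128549154-128549183 (Rpl41, minus), chr17:33824548-33824577 (Rps28, minus), chr7:24884577-24884606 (Rps19, plus, the first of 3 listed starts) and chr17:24720048-24720077 (Rps2, plus). Rps19 has a run of 7 at another of its listed starts and so counts among the 33 members with a run. A run is a description of these letters, and an annotated start can differ from the start in use.

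1 library, replicate 2 of the E10.5 HLB, listed 33 of the 79 members at 0 and was left out, which left 2 libraries in that group and 26 in all. Depth, read from the step of the low values, was 19642245 to 22142300 reads in the early limb buds and 5543755 to 8541932 in the other 20 libraries used. The labels fitted the marker genes: 5 heart muscle genes summed to 15315 to 18400 scaled CPM in Ca and to 95.3 at most elsewhere, 3 branchial arch genes to 274 to 295 in BA and 16.5 at most elsewhere, and 4 tail bud genes to 286 to 320 in TB and 72.6 at most elsewhere. The 7 limb mesenchyme markers were not limited to limb buds, with 249 to 374 in Ca and TB, 1204 to 1255 in BA and 1070 to 1620 in the limb bud and ES-LB groups.

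The 79 members together held 4.71% to 7.40% of a library. In CPM as deposited the share was 6.98% ± 0.203 (SD, n = 3) in early FLB and 7.29% ± 0.131 (n = 3) in early HLB. It was 6.19% ± 0.0545 (n = 3) in E10.5 FLB and 6.68% ± 0.0438 (n = 2) in E10.5 HLB. BA (6.04% ± 0.0646), Ca (5.63% ± 0.104) and TB (6.28% ± 0.0855, n = 3 each) lay near or below the E10.5 limb buds. ES-FLB had 4.76% ± 0.0437 and ES-HLB 5.13% ± 0.0647 (n = 3 each), and all 6 ES-LB libraries were below all 20 embryonic libraries. The large subunit had 4.52% in early HLB and 2.86% in ES-FLB, the small subunit 2.77% and 1.90%.

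**Figure D1:**
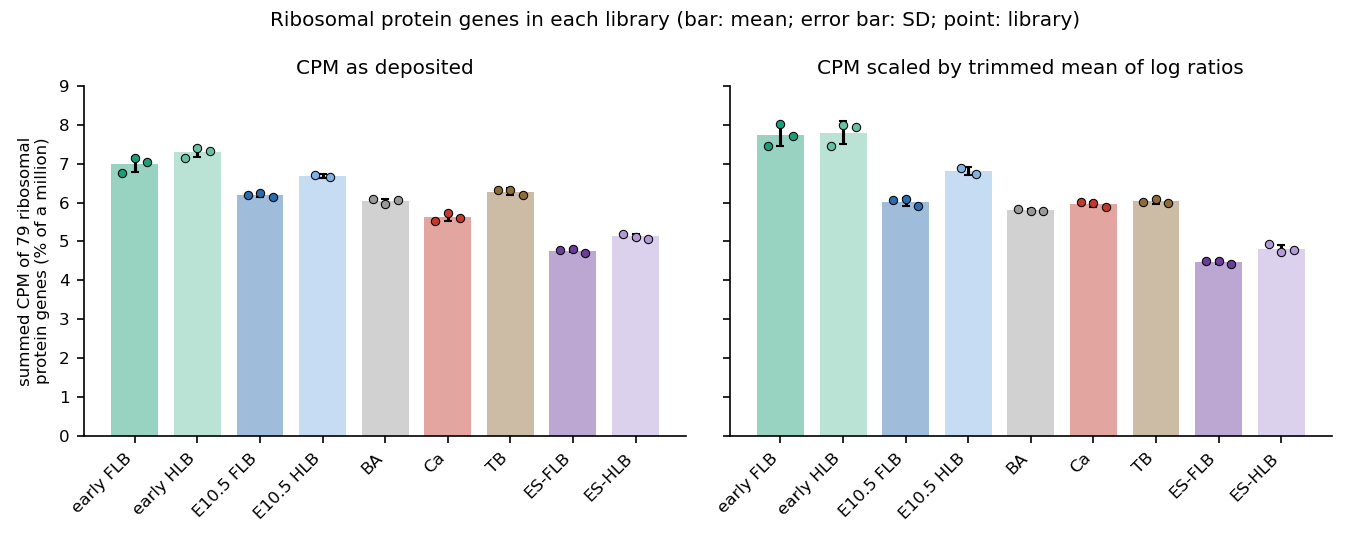
Summed CPM of the 79 ribosomal protein genes as a percentage of the library total (y axis) in the 9 groups (x axis), as deposited (left) and after scaling (right); bars are group means, error bars SD and points the 26 libraries. The ES-FLB and ES-HLB points lie lowest in both panels and the early limb buds highest.

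Scaling sets the size of these differences. A share is a fraction of a fixed total, and a scale factor per library was therefore also taken from the trimmed mean of its log ratios over all genes, with values from 0.89 to 1.08. After scaling, ES-FLB held 0.742 times the level of E10.5 FLB (0.769 times as deposited), and 0.577 times that of early FLB (0.682 times as deposited). ES-HLB held 0.707 times the level of E10.5 HLB (0.768 as deposited) and 0.617 times that of early HLB (0.703 as deposited). Ca was lowest of the embryonic groups as deposited, while after scaling BA was (5.80% ± 0.0344 against 5.96% ± 0.0720 in Ca). Values of single genes are given below as scaled CPM, changes as log2 fold changes of scaled CPM + 0.5 from limma over 14432 genes tested, and a gene was called at a Benjamini-Hochberg adjusted p under 0.05. On this scale the change of low genes is understated.

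Among the 9 groups, 78 of the 79 members differed (limma F test), beside 97.7% of all genes tested, and Rpl34 did not pass (adjusted p = 0.0597). The median member had a range of 0.79 on the log2 scale between its highest and its lowest group mean. For most members ES-FLB was the lowest group and one of the early limb bud groups the highest.

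Members were lower in ES-LB than in limb buds, in both limb types and against both stages. Against E10.5 FLB, 72 members were lower and 4 higher in ES-FLB, with a median change of -0.44 (0.739-fold). The background was 34.6% of all genes lower and 34.1% higher. Against E10.5 HLB, 72 were lower and 3 higher in ES-HLB, with a median of -0.52 (0.697-fold) and a background of 34% lower and 34.5% higher. Against the early stage the medians were -0.76 in FLB (76 lower, background 38.7%; none higher, background 38.3%, and none higher at an unadjusted p under 0.05 either) and -0.68 in HLB (76 lower, background 37.7%; 1 higher, background 37.5%). The median of all genes tested was between 0.00 and 0.02 in the 4 comparisons. Depth also differed between ES-LB and the early limb buds, as did the form of the values (below), and their part was not tested. For 69 members the 6 ES-LB libraries lay below all 11 limb bud libraries, which held for 22.3% of all genes tested. None had the reverse order (background 21.2%). Among the exceptions were Rpl13, Rpl21, Rpl22l1, Rps19 and Rps28, and Rpl26, Rpl30, Rpl34 and Rps27, whose reads are shared with a copy (below).

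Both subunits took part. In ES-FLB against E10.5 FLB the median was -0.46 for the 48 genes of the large subunit and -0.42 for the 31 of the small subunit, and in ES-HLB against E10.5 HLB -0.53 and -0.51. The members lie on 19 chromosomes. In these libraries a smaller share of cells with high levels and less RNA per cell cannot be told apart.

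**Figure D2:**
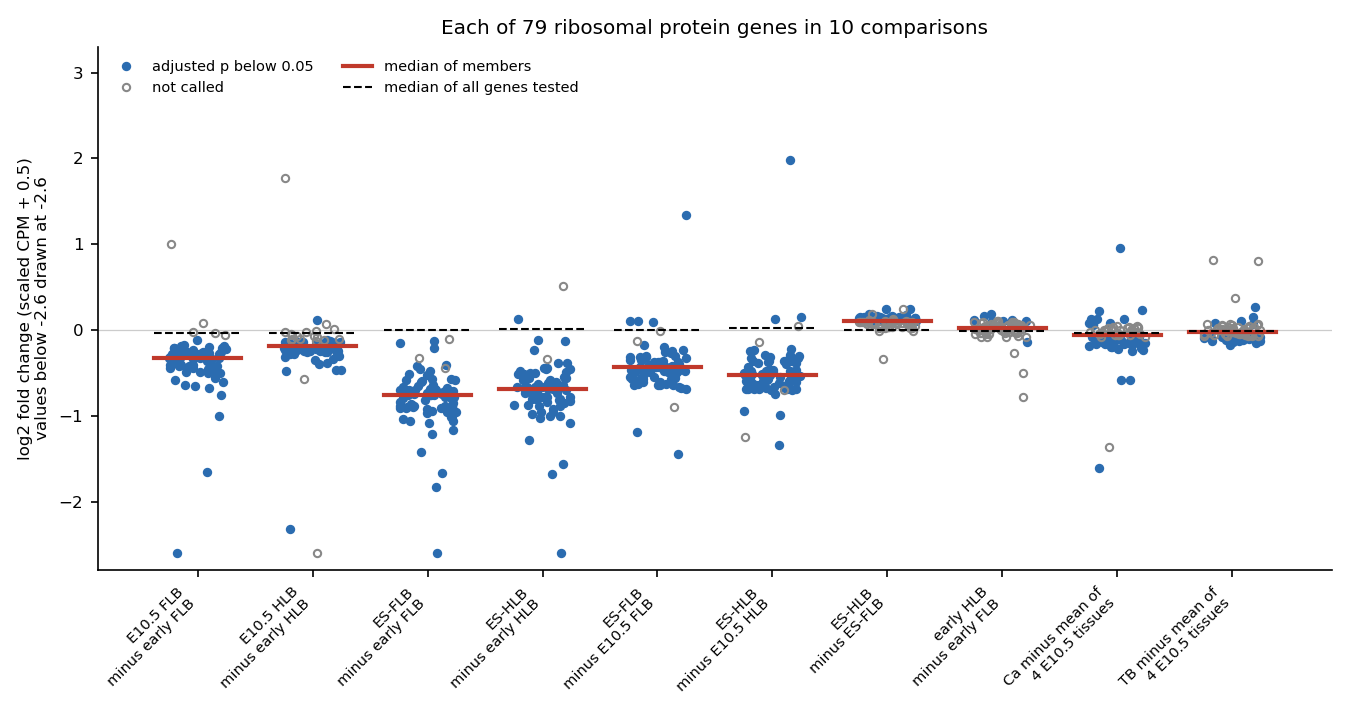
Log2 fold change (y axis) of each of the 79 members in 10 comparisons (x axis); filled points passed an adjusted p of 0.05, red lines are the medians of the members and dashed lines the medians of all genes tested, and the 4 lowest points (Rpl26) are drawn at the floor of the axis. The red line is at -0.44 to -0.76 in the 4 comparisons of ES-LB with limb buds and at 0.11 between the ES-LB types.

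Other transcripts moved alongside. The 82 other genes with a main transcript of at most 1000 bases and a mean of at least 100 scaled CPM, a group set up after the values were seen, had medians of -0.47 in ES-FLB and -0.61 in ES-HLB against the E10.5 limb buds, and of -0.71 and -0.76 against the early ones. All 2417 other genes at 100 CPM or more had medians of -0.12 and -0.22 against E10.5. Across the 79 members, with copies summed, the change in ES-FLB against E10.5 FLB had a Pearson r of 0.035 (Spearman rho 0.13) with transcript length and of 0.026 (rho -0.057) with the share of sequence found in other genes, where the points share libraries and depth. The summed level of 6 erythroid genes was 5.45 to 169 scaled CPM in ES-LB against 2320 to 6838 in the limb buds, 4 endothelial genes summed to 20.8 to 37.0 against 230 to 324, and 5 surface ectoderm genes to 64.4 to 130 against 169 to 398. 3 pluripotency genes summed to 8.72 to 12.6 in ES-FLB and 36.5 to 51.0 in ES-HLB, against at most 1.70 in the embryo. The part of transcript length, abundance or other cell types in the members' change was not tested.

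The ribosomal stalk is made of Rplp0 and the acidic proteins Rplp1 and Rplp2 and is in contact with the elongation factors. With copies summed, Rplp0 had the lowest change of all members in each of the 4 comparisons. Rplp0 was 892, 892 and 872 in ES-FLB and 965, 944 and 954 in ES-HLB. It was 2034, 2033 and 1969 in E10.5 FLB, 2462 and 2364 in E10.5 HLB, 3051, 3321 and 3096 in early FLB and 2839, 3195 and 3118 in early HLB. The ES-LB libraries were thus far below every embryonic limb bud library, with no overlap. The fold was 0.440 in ES-FLB against E10.5 FLB (log2 -1.18, SE 0.0364, limma adjusted p = 1.18e-22) and 0.396 in ES-HLB against E10.5 HLB (log2 -1.34, SE 0.0407, adjusted p = 1.73e-22). Against the early stage it was 0.281 in FLB and 0.313 in HLB. BA, Ca and TB had means of 2011, 2266 and 2152, between the ES-LB and the early limb buds.

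Rplp1 was 550, 577 and 571 in ES-FLB and 614, 597 and 609 in ES-HLB, against 918, 908 and 877 in E10.5 FLB and 1185 and 1143 in E10.5 HLB. Its log2 change was -0.67 (SE 0.0425, limma adjusted p = 4.9e-15) for FLB and -0.94 (SE 0.0475, adjusted p = 2.47e-17) for HLB. Rplp2 was 182, 192 and 182 in ES-FLB and 209, 209 and 191 in ES-HLB, against 296, 287 and 286 and 352 and 329 in the E10.5 limb buds. Its log2 change was -0.64 and -0.75, closer to that of the median member. A listed gene, Wdr89, shares part of the sequence of Rplp2 but held 5.73 to 23.9 scaled CPM on average, and with it added the changes were -0.66 and -0.78.

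Some members departed from the rest in the other direction. Among the 4 called higher in ES-FLB than in E10.5 FLB were Rps19, Rpl13 and Rps27, and the 3 in ES-HLB than in E10.5 HLB were Rps19, Rpl13 and Rps27. The reads of Rps27 are shared with a copy, and with the copy added Rps27 was lower in both comparisons (below). Rps19, a small subunit protein whose human gene is mutated in Diamond-Blackfan anaemia, was 536, 522 and 493 in ES-FLB and 577, 550 and 576 in ES-HLB. In the E10.5 FLB it was 464, 490 and 491 and in the E10.5 HLB 504 and 516. It was higher by 0.10 in ES-FLB (limma adjusted p = 0.0371) and by 0.15 in ES-HLB (adjusted p = 0.00535), while the median member fell. Against the early stage it was lower in ES-FLB (-0.16, adjusted p = 0.00168) and higher in ES-HLB (0.13, adjusted p = 0.00907). Rpl13, of the large subunit, was higher by 0.10 in ES-FLB (adjusted p = 0.0156) and by 0.12 in ES-HLB against E10.5 (adjusted p = 0.00687), with 1139 to 1194 against 1055 and 1086.

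Rps28, a protein near the mRNA exit of the small subunit, varied least of all members in scaled CPM, with a range of 0.28 between group means. Scaled to the members' sum it was among the wider ones (0.69, against 0.24 for the median member). It was 256, 263 and 239 in Ca, its lowest group, and 315, 308 and 296 in early HLB, its highest. ES-FLB had 253, 267 and 246 and ES-HLB 261, 262 and 256, all within the range of the BA, Ca and TB libraries. Rpl13, Rpl21 and Rps19 were also among the narrowest in scaled CPM, with ranges of 0.44 to 0.46, and on the other scale Rpl13 had 0.62 and Rps19 0.82. The widest ranges were those of Rpl26 (5.53), Rps27 (2.32), Rpl34 (2.07), Rplp0 (1.83), Rpl30 (1.67), Rplp1 (1.43), Rps27l (1.21), Rps2 (1.17) and Rpl36 (1.13), with Rpl27a next. For those that share reads with a copy the range was far smaller with the copy added: 0.87 for Rpl26, 0.37 for Rps27, 0.80 for Rpl34 and 0.75 for Rpl30.

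**Figure D3:**
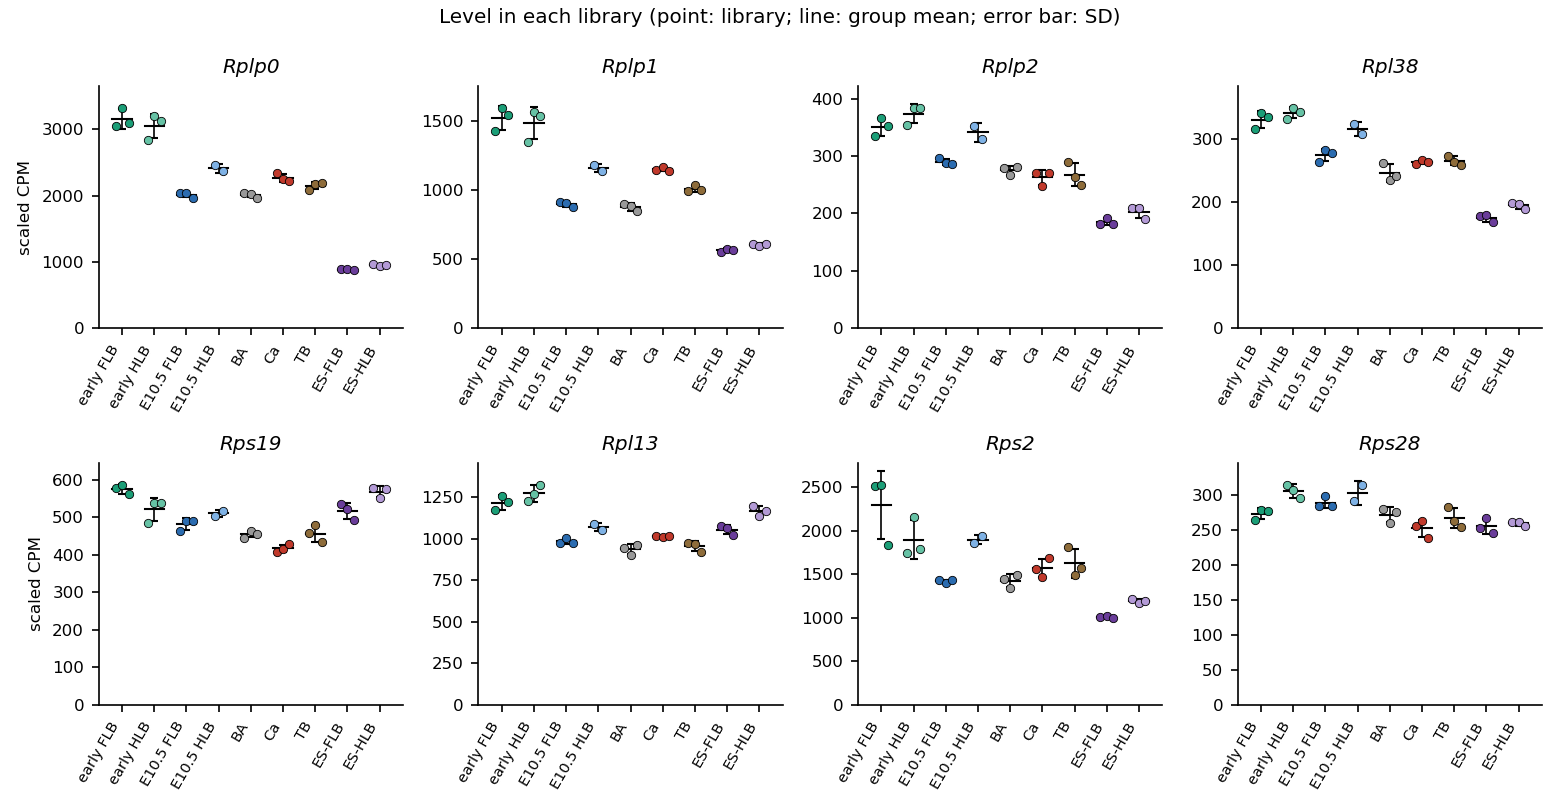
Scaled CPM (y axis, from 0) of 8 members in each of the 26 libraries by group (x axis); points are libraries, lines group means and error bars SD. Rplp0 falls from about 3156 in early FLB to 885 in ES-FLB, while Rps28 stays between 253 and 307.

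Dividing each library by the summed CPM of the members leaves only differences among the members. On this scale the range of the median member shrank from 0.79 to 0.24, and 68 of 79 members stayed within 0.5 between groups. Rplp0 remained lower in ES-LB than in limb buds in all 4 comparisons (-0.75 to -1.04, largest adjusted p = 8.18e-21), as did Rplp1 (-0.24 to -0.64, largest adjusted p = 3.54e-08) and Rplp2 (-0.13 to -0.25, largest adjusted p = 0.0157). Rps19 was higher relative to the family in all 4 (0.53 to 0.82, largest adjusted p = 4.25e-13). Rpl13 was higher by 0.58 in ES-FLB and by 0.57 in ES-HLB against the early stage. Against E10.5, Rps28 was higher by 0.25 in ES-FLB and 0.28 in ES-HLB. The directions of Rpl13 against the early stage, of Rps19 in ES-FLB against early FLB and of Rps28 against E10.5 thus depended on the scale. As scaled CPM the changes were -0.21 and -0.13 for Rpl13 and -0.16 for Rps19, and Rps28 was lower by 0.18 and 0.22 in the same comparisons. The calls over all members became 21 higher and 23 lower in ES-FLB against E10.5 FLB, and 23 and 26 in ES-HLB against E10.5 HLB. Of all 14518 genes tested on that scale, 8921 were higher and 1979 lower in the former, and 9002 and 1702 in the latter.

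Most members with known mutant phenotypes were lower in ES-LB. Rpl38, a large subunit protein whose loss in mice alters the vertebral pattern and the translation of Hox mRNAs, was 178, 181 and 169 in ES-FLB and 200, 198 and 189 in ES-HLB. It was 264, 283 and 278 in E10.5 FLB and 324 and 309 in E10.5 HLB, so that the groups did not overlap. Of 8 such members (Rpl24, Rpl27a, Rpl38, Rps6, Rps7, Rps14, Rps19 and Rps20), 7 were lower (background 34.6% in FLB and 34% in HLB) and 1, Rps19, was higher (background 34.1% and 34.5%) in each of the comparisons with E10.5. These 8 did not stand apart from the set, since 72 of all 79 members were lower in each of these comparisons. Rpl5 and Rpl11, which with 5S RNA form a particle that binds Mdm2 when ribosome assembly is disturbed, were both lower, Rpl5 with 1013 ± 23.0 in ES-FLB against 1362 ± 37.1 in E10.5 FLB and Rpl11 with 553 ± 19.9 against 821 ± 17.6 (n = 3 each).

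With stage, members fell in the embryo as well. From the early stage to E10.5, 74 members were lower in FLB (median -0.32, background 32.3% lower) and none higher (background 27%; none at an unadjusted p under 0.05 either). In HLB, 59 were lower (median -0.19, background 17.2%) and 1 was higher (background 12.1%), which was Rps4x, an X-linked protein of the small subunit. The median of all genes tested was -0.03 in both. The fall was not limited to the members. Of 76 genes of mitochondrial ribosomal proteins, 68 were lower in FLB (median -0.35) and 41 in HLB (median -0.24), and none higher. The 2417 other genes at 100 CPM or more had a median of -0.17 in FLB (1347 lower, 462 higher). In HLB their median was -0.04 (627 lower, 366 higher). Depth moved with stage, as did the form of the values: 51.9% to 59.5% of member values were whole reads (within 0.02 of a read) in the early limb buds and 75.9% to 94.9% in the other libraries, and the part of this difference was not tested. In CPM as deposited 55 members were lower and 4 higher in FLB, and 48 and 2 in HLB. Of all 14451 genes tested on that scale, 2870 were lower and 5717 higher in FLB, and 1766 and 2476 in HLB.

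Rps4x was 1453, 1429 and 1430 in early HLB and 1555 and 1555 in E10.5 HLB (log2 0.11, SE 0.0384, limma adjusted p = 0.0239). The call was lost when replicate 3 of the early HLB or either E10.5 HLB library was left out. In FLB Rps4x had 1458 ± 53.0 early and 1417 ± 44.6 at E10.5, and did not pass (adjusted p = 0.322). Of the members that passed in HLB, Rps26 (-0.48) and Rpl31 (-0.47, limma adjusted p = 6.54e-10 for both) fell most beside Rps27, whose reads are shared with a copy. Rps26 was 641, 689 and 685 early and 475 and 491 at E10.5, and Rpl31 529, 579 and 570 against 398 and 410. The smallest falls in HLB that passed were those of Rps20 (-0.11) and Rps18 (-0.13). In FLB they were those of Rps15a (-0.11, adjusted p = 0.0261), Rps15 (-0.18) and Rpl37 (-0.19), and the stalk genes Rplp0 and Rplp1 fell by 0.65 and 0.76.

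From the early stage to E10.5 the decline was smaller in HLB than in FLB. By the study's ages the step was also shorter in HLB, so limb type and length of the step cannot be told apart. As a test of the difference, 29 members had a higher change in HLB (median difference 0.14, background 11.4%) and none a lower one (background 9.6%; none at an unadjusted p under 0.05). The difference was not particular to the members, since the 2417 other genes at 100 CPM or more had the same median of 0.14, with 792 higher and 140 lower. Rps2, of the small subunit, differed by 0.69 (SE 0.154, adjusted p = 0.0039), with 2513, 2528 and 1837 in early FLB, 1427, 1396 and 1431 in E10.5 FLB, 1744, 2151 and 1782 in early HLB and 1858 and 1933 in E10.5 HLB. The early FLB libraries spread widely in Rps2, while E10.5 FLB lay below all others of these groups. Rplp1 differed by 0.41 (SE 0.0637, adjusted p = 2.25e-05) and Rpl22l1 by 0.36 (SE 0.106, adjusted p = 0.0143). The count depended on scaling, with 6 higher and 3 lower in CPM as deposited, beside 754 and 2117 of 14451 genes. It was 17 without replicate 1 of E10.5 HLB.

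Between the ES-LB types members were slightly higher in ES-HLB. 38 were higher (median 0.11, 1.08-fold, background 10.6%) and none lower (background 9.04%; none at an unadjusted p under 0.05), and 76 of 79 values were above 0. Rpl12, a large subunit protein of the stalk base, was 918, 886 and 880 in ES-HLB against 753, 745 and 772 in ES-FLB (log2 0.24, SE 0.0336, limma adjusted p = 1.73e-06). Rps27l, of the small subunit, had the largest value (0.25), Rpl8, of the large subunit, had 0.18, and Rps10, Rps25 and Rpl17 were at the low end of those called (0.10 each). Without replicate 3 of ES-FLB 12 members were called, without replicate 2 of ES-FLB 25, and without replicate 1 of ES-HLB 11. Scaled to the members, 2 were higher and 5 lower, beside 1145 and 3249 of 14518 genes. Rpl12 was among the 2 higher (0.13, limma adjusted p = 0.00052). Markers of other cells moved with this difference. In ES-HLB 3 of 3 pluripotency, 5 of 6 erythroid, 4 of 4 endothelial and 3 of 5 surface ectoderm genes were higher and none of these lower. The pluripotency genes summed to 36.5 to 51.0 scaled CPM in ES-HLB against 8.72 to 12.6 in ES-FLB and the erythroid genes to 89.6 to 169 against 5.45 to 8.45. The endothelial genes summed to 32.9 to 37.0 against 20.8 to 24.2 and the surface ectoderm genes to 121 to 130 against 64.4 to 102. The part of these cells in the members' difference was not tested.

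Early HLB and early FLB, which by the study's description also differ in age, differed little, with 7 members higher in HLB (background 8.28%) and 1 lower (background 10.6%). Rpl41, the smallest of the ribosomal proteins, was 1601, 1672 and 1680 in early HLB and 1366, 1494 and 1490 in early FLB (0.19, SE 0.0366, adjusted p = 0.000265). Rps28 (0.16) was also higher, and Rps19 was lower (-0.15, adjusted p = 0.0147). In CPM as deposited 28 members were higher and none lower, beside 1686 and 1087 of 14451 genes. Leaving out single libraries took the 7 members down to 1 (without replicate 1 of early FLB) or 2 (without replicate 2 or 3 of early HLB).

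The difference between limb types was compared between culture and embryo. HLB minus FLB was higher in the ES-LB than in the early limb buds for 13 members (background 11.2%) and lower for 1 (background 8.65%), with a median difference of 0.08. The share of members higher was not above that of the 2417 other genes at 100 CPM or more. Of those, 472 were higher and 203 lower, with a median of 0.05. The age of the early groups enters this difference and cannot be told apart from limb type. Rps2 (0.51, adjusted p = 0.0189), Rps19 (0.28, adjusted p = 0.000922) and Rps27l (0.26, adjusted p = 0.0304) led the 13 members that were higher. For Rps19 HLB minus FLB was 0.14 in ES-LB and -0.15 in the early limb buds, and for Rps2 0.24 and -0.27, of which neither passed by itself (adjusted p = 0.12 and 0.0814). Rpl41 was the exception (-0.20, SE 0.0517, adjusted p = 0.00465): 787, 771 and 776 in ES-HLB against 755, 787 and 817 in ES-FLB. The count of 13 was 5 without replicate 2 of early FLB and 6 without replicate 1 of early HLB. It was 8 without replicate 3 of ES-FLB and 7 without replicate 1 of ES-HLB. In CPM as deposited it was 7, beside 1274 of 14451 genes.

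Heart and tail bud were each set against the mean of the other E10.5 groups. In Ca 36 members were lower (background 40.9%) and 10 higher (background 38.1%), with a median of -0.06, so that the share higher was below the background while 36 of 79 lower lay near it. CPM as deposited gave 67 lower and 2 higher, beside 6717 and 4821 of 14451 genes. The median of ratios gave 25 and 19, beside 5539 and 5846 of 14453 genes. The heart muscle and erythroid genes, the latter at 24278 to 35280 scaled CPM in Ca against 2705 to 6766 in the other E10.5 groups, moved with this difference, and their part was not tested. Rpl7l1, a paralog of Rpl7 that takes part in ribosome assembly, was 138, 152 and 140 in Ca against 194 ± 7.63 in BA, 197 ± 5.44 in E10.5 FLB, 243 ± 13.8 (n = 2) in E10.5 HLB and 229 ± 14.6 in TB (log2 -0.58, SE 0.0394, limma adjusted p = 5.47e-15). Rplp1 (0.23, adjusted p = 2.26e-07) and Rpl39 (0.23, adjusted p = 5.25e-06), a small protein at the peptide exit tunnel, were higher. Without replicate 1 of Ca 5 members were higher.

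In TB 18 members were lower (background 26.2%) and 5 higher (background 25.1%), with a median of -0.03. CPM as deposited gave 6 lower and 22 higher, beside 3036 lower and 4650 higher of all 14451 genes tested on that scale. Rpl7l1 was higher (0.26, SE 0.0394, adjusted p = 1.19e-06), as were Rpl39 (0.15) and Rps24 (0.10), and Rpl10 (-0.18) and Rps10 (-0.14) were lower. Rpl7l1, Rpl39 and Rps24 kept their direction under each of the scalings tried. Without replicate 2 of TB 2 members were higher.

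**Figure D4:**
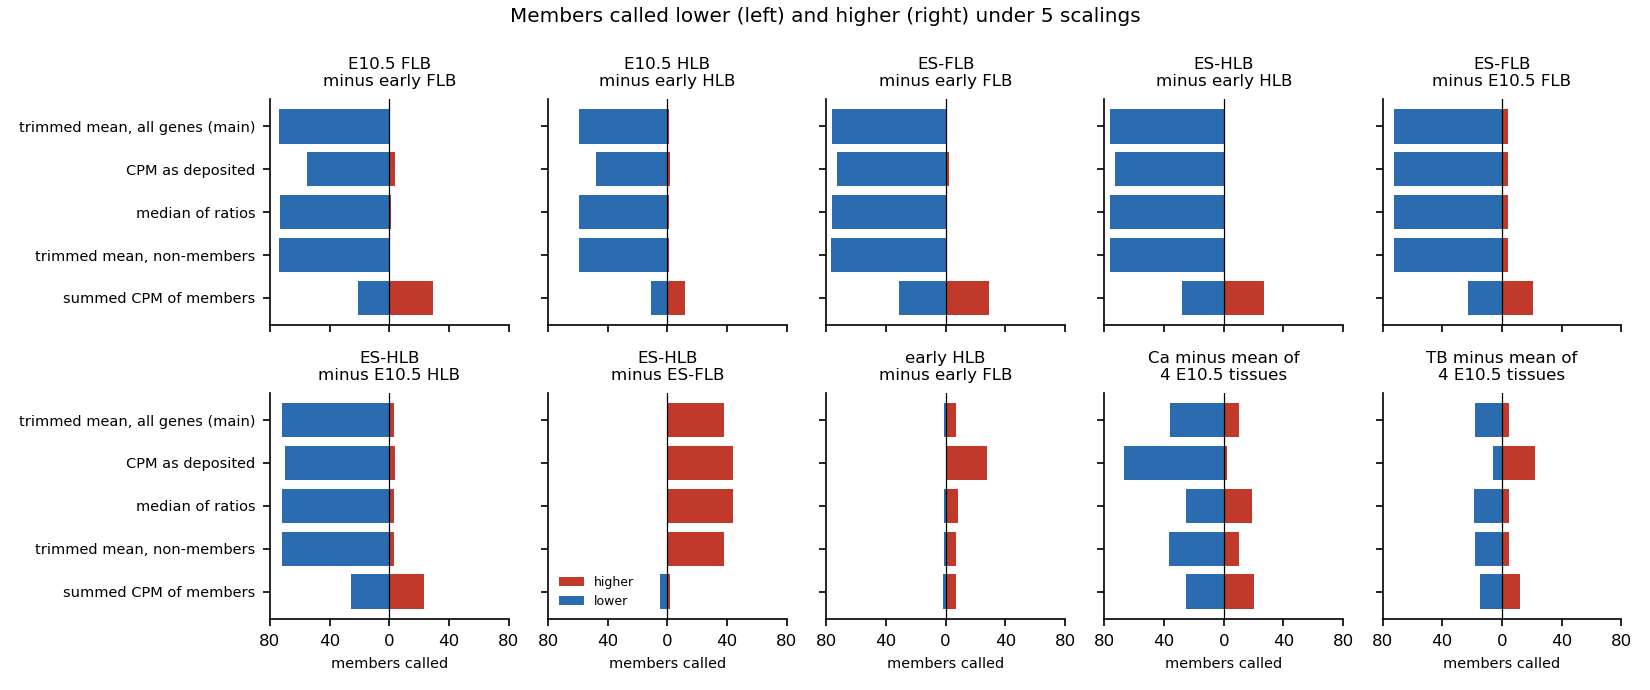
Number of members called lower (blue, left of 0) and higher (red, right of 0) in 10 comparisons (panels) under 5 scalings (rows); the x axis counts members. ES-LB against limb buds stays one-sided under 4 scalings and splits to both sides when libraries are divided by the members' own sum, and Ca, TB and early HLB against early FLB change with CPM as deposited.

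3 members are paralogs of another member. Rpl22l1 had 23.4% ± 1.05 of the level of Rpl22 in ES-FLB and 21.8% ± 1.40 in ES-HLB, against 14.7% ± 1.18 in BA to 18.2% ± 1.62 (n = 2) in E10.5 HLB among the embryonic groups. These are ratios between genes of different length and were compared between groups alone. The ES-LB libraries (20.5% to 24.4%) did not overlap with the embryonic ones (13.6% to 19.3%). Rpl22l1 itself was lower in ES-FLB than in early FLB (-0.57, limma adjusted p = 1.18e-08) and did not pass against E10.5 FLB (-0.13, adjusted p = 0.106). In HLB its mean was 71.1 scaled CPM in ES-HLB, against 92.4 (n = 2) in E10.5 HLB and 97.6 in early HLB. Rps27l, of the small subunit and a target of p53, had 30.8% ± 0.829 of the sum of Rps27 and its copy in early FLB, 23.1% ± 1.39 in E10.5 FLB and 16.4% ± 0.915 in ES-FLB. Rpl7l1 had 17.5% ± 0.299 of Rpl7 in early FLB, 11.1% ± 0.442 in Ca and 14.2% ± 0.696 in ES-FLB.

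3 genes with a matching symbol were under the minimum: Rpl3l (mean 0.0783 CPM), Rpl39l (0.17) and Rpl10l (0.24). The members next above it were Rpl26 (13.7) and Rpl30 (27.7). Rpl10l, the retrogene copy of X-linked Rpl10, was listed at 0 in all 20 embryonic libraries used and at 1.27 to 1.55 scaled CPM in ES-HLB.

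6 members share at least 20% of their sequence windows with a listed copy. For Rps27, Rpl26, Rpl30 and Rpl34 the copy held many reads, and their single values are uncertain. For Rplp2 (above) and Rpl22l1 it held few, 0.514 to 1.48 scaled CPM on average for Gm15421, the copy of Rpl22l1. Of the 80-base windows of its main transcript (GENCODE M21), the median member had 38.7% also present in other genes, most of which are not listed. Rps27 had 98.5%. It was 470, 485 and 517 in early FLB, 74.0, 232 and 218 in E10.5 FLB, and 336 and 32.7 in E10.5 HLB, and the copy Gm9846 held 269 ± 80.8 and 278 ± 211 in the E10.5 limb buds and 4.34 to 23.2 on average elsewhere. The sum was 508 ± 26.5 in early FLB, 443 ± 15.5 in E10.5 FLB and 412 ± 5.11 in ES-FLB (n = 3 each). Rps27 was called higher in ES-LB than at E10.5 (1.34 and 1.99), and the sum was lower (-0.11 in both, adjusted p = 0.0222 and 0.0266).

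For Rpl26, Gm15772 held 552 to 975 on average and Rpl26 itself 1.45 to 48.8. The sum was 810 ± 22.5 in E10.5 FLB and 555 ± 11.1 in ES-FLB. Rpl30 with Gm12191 and Rpl34 with Rpl34-ps1 likewise gave sums of 465 ± 25.5 against 342 ± 10.1 and 444 ± 17.3 against 331 ± 6.49. The log2 change of Rpl26 in ES-FLB against early FLB was -5.19 alone and -0.78 as a sum, and that of Rpl30 -1.67 and -0.75. With copies summed, 74 members were lower and 3 higher in ES-FLB against E10.5 FLB and 75 and 2 in ES-HLB against E10.5 HLB.

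**Figure D5:**
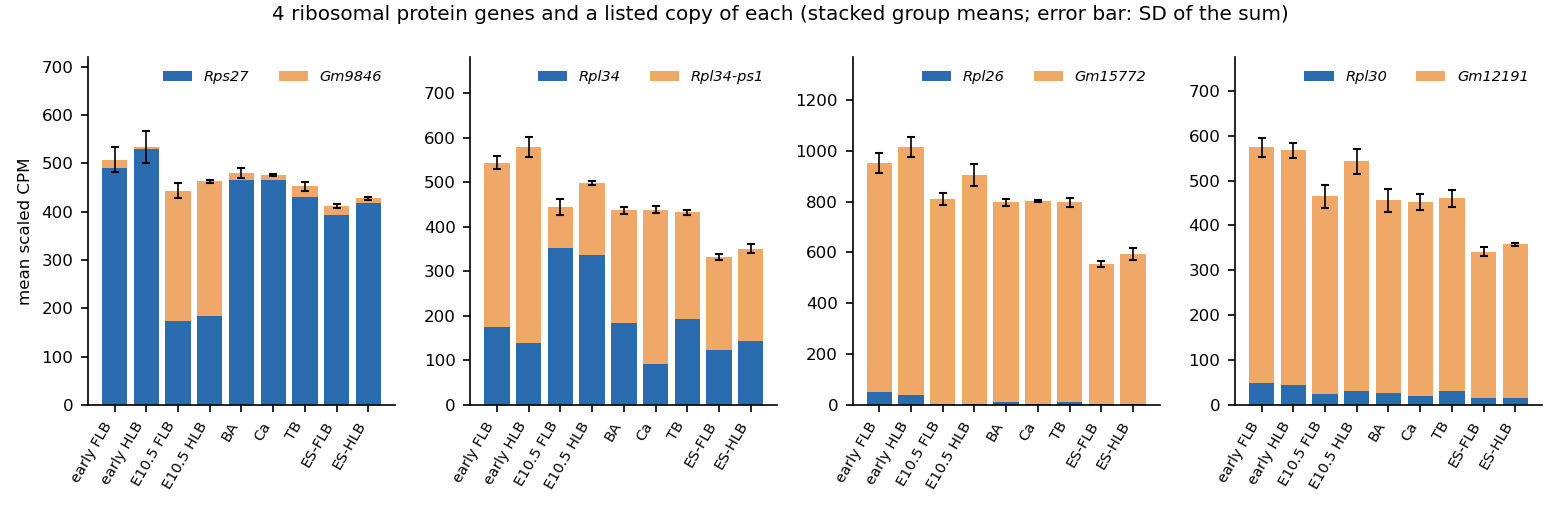
Mean scaled CPM (y axis) of 4 members (blue) stacked with a listed copy (orange) in the 9 groups (x axis); error bars are the SD of the sum. Rps27 changes place with Gm9846 in the E10.5 limb buds, and the sums fall from the early limb buds to ES-LB for each of the 4.

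Genes of the same machinery outside the symbol rule were read from the same fit. Of 4 listed ribosomal protein genes that the rule misses, 3 were lower and 1 higher in ES-FLB than in E10.5 FLB (background 34.6% and 34.1%). In ES-HLB against E10.5 HLB, 3 were lower and none higher (background 34% and 34.5%). Rpsa, Fau and Rpl36al were lower in both. Rpsa, the small subunit protein also called laminin receptor, was 1472 ± 35.4 in ES-FLB against 2202 ± 93.3 in E10.5 FLB (n = 3 each).

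The 76 genes of mitochondrial ribosomal proteins, which serve the ribosome inside mitochondria, were also mostly lower in ES-LB: 60 lower and 2 higher in ES-FLB (median -0.33, background 34.6% lower and 34.1% higher) and 70 and 1 in ES-HLB (median -0.53, background 34% and 34.5%) against E10.5. In Ca they went apart from the cytosolic members, with 47 higher (background 38.1%) and 5 lower (background 40.9%, median 0.20). Between the ES-LB types 6 were higher (background 10.6%) and 2 lower (background 9.04%), with a median of 0.01.

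Of 19 translation factors and related genes with TOP mRNAs, 15 were lower and none higher in each of the comparisons with E10.5 (background as above), with medians of -0.26 and -0.35. Pabpc1, the poly(A)-binding protein, changed by -0.57 and -0.68, and Eef1a1, the elongation factor that brings tRNA, by -0.26 and -0.31. Eef2, the translocation factor, had 0.02 and 0.05, and neither passed. Among 14 regulators of growth, Mycn, a transcription factor that acts on ribosome genes, was 214 ± 10.1 in early FLB, 96.3 ± 3.29 in E10.5 FLB, 29.3 ± 1.90 in ES-FLB and 56.9 ± 6.32 in ES-HLB (n = 3 each). 6 of the 14 were higher and 4 lower in ES-FLB against E10.5 FLB, and 5 were higher and 5 lower in ES-HLB. The 6 higher in ES-FLB were Tsc1 (0.52), an inhibitor of mTOR, Myc (0.48), Rictor (0.44), Rps6kb2 (0.23), Rptor (0.21) and Tsc2 (0.20). Mycn, Rps6kb1, Eif4ebp2 and Mlst8 were the 4 lower. Larp1 had -0.07 in ES-FLB (limma adjusted p = 0.153) and -0.12 in ES-HLB (adjusted p = 0.0339). The background was 34.1% higher and 34.6% lower in ES-FLB and 34.5% and 34% in ES-HLB, so these counts lay near it.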

How the data were processed

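Total RNA was sequenced by the authors as stranded mRNA libraries with single-end reads, mapped to mm10 with HISAT (HISAT2 2.0.4 in the submitters' processing notes) and counted per gene with Cuffdiff, for which the notes and the study's methods name different versions. The authors deposited CPM, and 0 columns were of unknown samples. The counting's strand setting is not given in the sources used here, so overlapping and antisense genes are uncertain.

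1 truncated library of the E10.5 HLB was left out. Each of the other 26 got a factor from the trimmed mean of its log ratios, without weights (30% and 5% trimmed), over all genes. Genes that reached 1 CPM in 3 libraries or more were tested on log2(scaled CPM + 0.5) with limma 3.58.1 (trend, robust) in R 4.3.3, in 1 model of 9 groups without a block, with the Benjamini-Hochberg method applied across 14432 genes. The test was run on simulated data: a first simulation with a fixed dispersion missed the recovery required of it, after which the dispersion was taken from the spread within groups and the requirement set on the larger fold, which was then met. Depth was taken from the step of the low values, and 3 reads, a floor for counting error only, were worth 0.135 to 0.541 CPM.

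The members and lists were chosen with earlier results of these data known. Named genes were the stalk genes, the paralogs, the 10 members with the widest and 5 with the narrowest range, the 3 largest changes in each direction per comparison relative to the members' median, and the gene lists. Alternatives were 4 other scalings, pseudocount 0.1, no filter, fits of the groups compared, the replicate number as a block and each library left out. Sums with copies, and the group of short abundant genes, were added after seeing the data. A copy shared at least 20% of a member's 80-base windows. Some genes that this rule names are not reported here.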

Additional observations from a re-analysis of the deposited data

Results flagged for a closer look

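Tests of a difference between 2 contrasts drew attention to 6 members. The change from the early stage to E10.5 differed between HLB and FLB for Rps2 (0.69), Rplp1 (0.41) and Rpl22l1 (0.36 on the log2 scale, limma adjusted p = 0.0039, 2.25e-05 and 0.0143). The difference between limb types was unlike in culture and in the embryo for Rps2 (0.51), Rps19 (0.28), Rps27l (0.26) and Rpl41 (-0.20), with adjusted p = 0.0189, 0.000922, 0.0304 and 0.00465. Scaled to the sum of the members, Rps2 (0.52), Rplp1 (0.24), Rps19 (0.19) and Rpl41 (-0.30) still passed for 1 of these tests each. Rpl22l1 and Rps27l did not pass on that scale (adjusted p = 0.173 and 0.152), nor did Rps2 between culture and embryo (adjusted p = 0.0526). The 3 early FLB libraries had 2513, 2528 and 1837 scaled CPM of Rps2.

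2 genes with a matching symbol that were no members, because their mean was under 1 CPM, stood above the level of 3 reads in ES-HLB. Rpl10l had a mean of 1.41 scaled CPM in ES-HLB and 0.541 in ES-FLB and was listed at 0 in the 20 embryonic libraries used. Rpl39l had a mean of 0.911 in ES-HLB, 0.249 in ES-FLB and at most 0.0902 in the embryonic groups. In the ES-HLB libraries 3 reads were worth 0.381 to 0.457 CPM, so both levels rest on small numbers of reads.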

How the results depend on the processing

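Counts of members called are given as higher and lower. In CPM as deposited they were 4 and 55 for E10.5 against early FLB, 2 and 48 for E10.5 against early HLB, 2 higher for ES-FLB against early FLB, 28 and 0 for early HLB against early FLB, 2 and 67 for Ca, 22 and 6 for TB, 7 higher for the difference of limb types between culture and embryo and 6 and 3 for the difference of stage changes. The median of all genes then moved by up to 0.22, and scaled to the sum of the members it was 0.73 for ES-FLB against early FLB. With the median of ratios, 1 was higher for E10.5 against early FLB and 19 for Ca. Scaled to the sum of the members, the counts were 29 and 21 (E10.5 against early FLB), 12 and 11 (E10.5 against early HLB), 29 and 31 (ES-FLB against early FLB), 27 and 28 (ES-HLB against early HLB), 21 and 23 (ES-FLB against E10.5 FLB), 23 and 26 (ES-HLB against E10.5 HLB), 2 and 5 (ES-HLB against ES-FLB), 7 and 2 (early HLB against early FLB), 20 and 25 (Ca), 12 and 15 (TB), 4 and 6 (limb types) and 4 and 7 (stage changes); this scaling removes a common change by construction. With fits of only the groups compared, and so fewer samples, 0 were higher for E10.5 against early HLB, 2 and 0 were called for early HLB against early FLB, and 8 were higher for limb types. Scaling without the members, pseudocount 0.1, no filter and summed copies left all 24 counts within 1.5 times. For the other settings the cause was not tested.

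The replicate numbers did not pair the libraries (no group pair of 28 had every correlation over 0.1; they ran from -0.0883 to 0.126). With the replicate number as a block, 2 members were higher for E10.5 against early HLB, and the other 23 counts stayed within 1.5 times.

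Leaving out 1 library at a time gave 0 to 0 higher and 72 to 74 lower for E10.5 against early FLB, 0 to 2 and 47 to 62 for E10.5 against early HLB, 0 to 0 and 76 to 77 for ES-FLB against early FLB, 0 to 1 and 76 to 76 for ES-HLB against early HLB, 1 to 4 and 70 to 72 for ES-FLB against E10.5 FLB, 1 to 3 and 72 to 74 for ES-HLB against E10.5 HLB, 11 to 42 and 0 to 0 for ES-HLB against ES-FLB, 1 to 9 and 0 to 2 for early HLB against early FLB, 5 to 10 and 27 to 38 for Ca, 2 to 7 and 12 to 20 for TB, 5 to 16 and 1 to 1 for limb types, and 17 to 37 and 0 to 1 for stage changes. The count of 4 higher in ES-FLB against E10.5 FLB was 2 without replicate 1 of E10.5 FLB and 1 without replicate 1 or 2 of ES-FLB, the 3 in ES-HLB were 1 without replicate 3 of E10.5 HLB, and the 1 in ES-HLB against early HLB was 0 without replicate 1 of early HLB. For E10.5 against early HLB, 2 were higher without replicate 1 of Ca. For early HLB against early FLB, 0 were lower without replicate 2 of early FLB or 1 of early HLB, and 2 without replicate 3 of early FLB or 2 of early HLB. For stage changes 1 was lower without replicate 1 of E10.5 HLB.

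Without the paralogs and their parent genes the share was 6.68% in early FLB, 6.98% in early HLB, 5.94% in E10.5 FLB, 6.41% in E10.5 HLB, 5.75% in BA, 5.39% in Ca, 6.01% in TB, 4.55% in ES-FLB and 4.90% in ES-HLB. With copies summed it was 7.48%, 6.36%, 6.86%, 6.19%, 5.78%, 6.44%, 4.88% and 5.25% from early HLB on.

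Among 82 values of single genes under 2870 alternatives, 2699 kept direction and side of the threshold, 141 lost the call, 1 gained it and 29 turned direction. Scaled to the members, these were Rplp2 (0.085), Rps15a (0.25), Rps15 (0.18), Rpl37 (0.17) and Rps4x (0.32) for E10.5 against early FLB, Rplp2 (0.064), Rps18 (0.066) and Rps20 (0.081) for E10.5 against early HLB, Rps19 (0.64), Rpl13 (0.58) and Rpl22l1 (0.22) for ES-FLB and Rpl13 (0.57) and Rpl22l1 (0.24) for ES-HLB against the early stage, Rps28 (0.25) and Rpl22l1 (0.30) for ES-FLB and Rps28 (0.28) and Rpl22l1 (0.13) for ES-HLB against E10.5, and Rps10 (-0.0063), Rps25 (-0.0054) and Rpl17 (-0.0018) between ES-LB types. In CPM as deposited they were Rps15a (0.075), Rps15 (0.0089), Rpl37 (0.0019) and Rps4x (0.15) for E10.5 against early FLB, Rps19 (0.085) and Rpl13 (0.032) for ES-FLB and Rpl13 (0.062) for ES-HLB against the early stage. With copies summed Rps27 was -0.11 for both ES-LB types against E10.5. The planned test of read counts with another tool was not run, because many values were not whole reads. Levels under about 0.5 CPM are below 3 reads in the E10.5 limb buds.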

Other observations

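Rps4y2, a gene outside the symbol rule that RefSeq lists as a transcribed pseudogene of the Rps4 family, moved against the members. It was 99.9 ± 5.35 scaled CPM in ES-FLB and 110 ± 3.89 in ES-HLB, against 56.1 ± 3.48 in E10.5 FLB and 48.0 ± 0.843 (n = 2, otherwise n = 3) in E10.5 HLB. Its log2 changes were 0.83 and 1.19 where the median member changed by -0.44 and -0.52. It was chosen after its values were seen, and in Ca it stood at 84.5 ± 3.37.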
